A study of Mus musculus with 10 samples.

Results

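Genes of the heterotrimeric G proteins and of their RGS regulators were compared between mouse medulloblastoma and cerebellum that is labelled wild type. They were taken by symbol, as every gene named Gna, Gnb1 to Gnb5, Gng or Rgs with the numbers and letters of these families, and each had to have a probe set that names no other gene. This gave 52 of 18193 genes, measured by 121 of 45137 probe sets. Of these, 46 genes had a probe set above the limit on low values and were tested. The symbols of Gnasas1, an antisense RNA of the Gnas locus, and Gnb1l, a repeat protein that is no beta subunit, match by name only, and all the others are subunits, regulators or anchors. Gng5 was not analysed here, since its 3 probe sets also name a pseudogene.

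Each of the Affymetrix chips 430A and 430B had arrays of 3 medulloblastomas and 2 pieces of adjacent cerebellum that the labels call wild type. The samples are numbered below by replicate number within each chip, and a number left out is left out on both chips. All came from mice carrying CAGGS-CreER and R26-SmoM2, an activated Smoothened at the Rosa26 locus. The mice had been given 1 mg of tamoxifen per 40 g of body weight on postnatal day 10. CreER is a recombinase that tamoxifen activates, and CAGGS is a promoter active in most cell types, so the promoter does not limit recombination to one lineage. The labels do not give the age at collection, nor whether a tumour and a cerebellum sample shared an animal.

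A heterotrimeric G protein consists of an alpha subunit that binds guanine nucleotide and a tight pair of a beta and a gamma subunit. A receptor at the membrane loads the alpha subunit with GTP, and alpha and beta-gamma then act on enzymes and channels until the alpha subunit hydrolyses the GTP. RGS proteins speed that hydrolysis and so shorten the signal. In the cerebellum these proteins carry the signals of metabotropic glutamate, GABA-B and cannabinoid receptors, and in the Hedgehog pathway Gs and cyclic AMP act against the GLI activators.

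The gamma subunit Gng13, the regulator Rgs8 and the anchor Rgs7bp were far lower in the tumours, while fewer genes were higher and none of them by as much. In limma, 8 of the 46 tested genes (17.4%) rose and 13 (28.3%) fell in medulloblastoma at an adjusted p below 0.05. Over all 14702 genes, 10.7% were called higher and 16% were called lower. Without cerebellum 1, 5 members (10.9%) rose, against 6.39% of all genes in the same fit. Without cerebellum 2, 3 members (6.52%) rose, which was near the 5.95% of all genes. Without tumour 1, 5 members (10.9%) rose, against 8.41% of all genes. Whichever replicate was left out, between 11 and 16 members fell (23.9% to 34.8%), against 9.75% to 17.1% of all genes. The median log2 fold change was -0.20 over the members and -0.05 over all genes. A fold change here is the tumour mean minus the cerebellum mean of log2(intensity + 16), which understates the change of dim probe sets. At least 2-fold changes on that scale were called in 2 members that rose (4.35%) and 10 that fell (21.7%), against 5.11% and 8.41% of all genes. Tumour values lay above both cerebellum values in 17 tested members and below both in 16, against 22.2% and 30.1% of all genes.

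**Figure D1:**
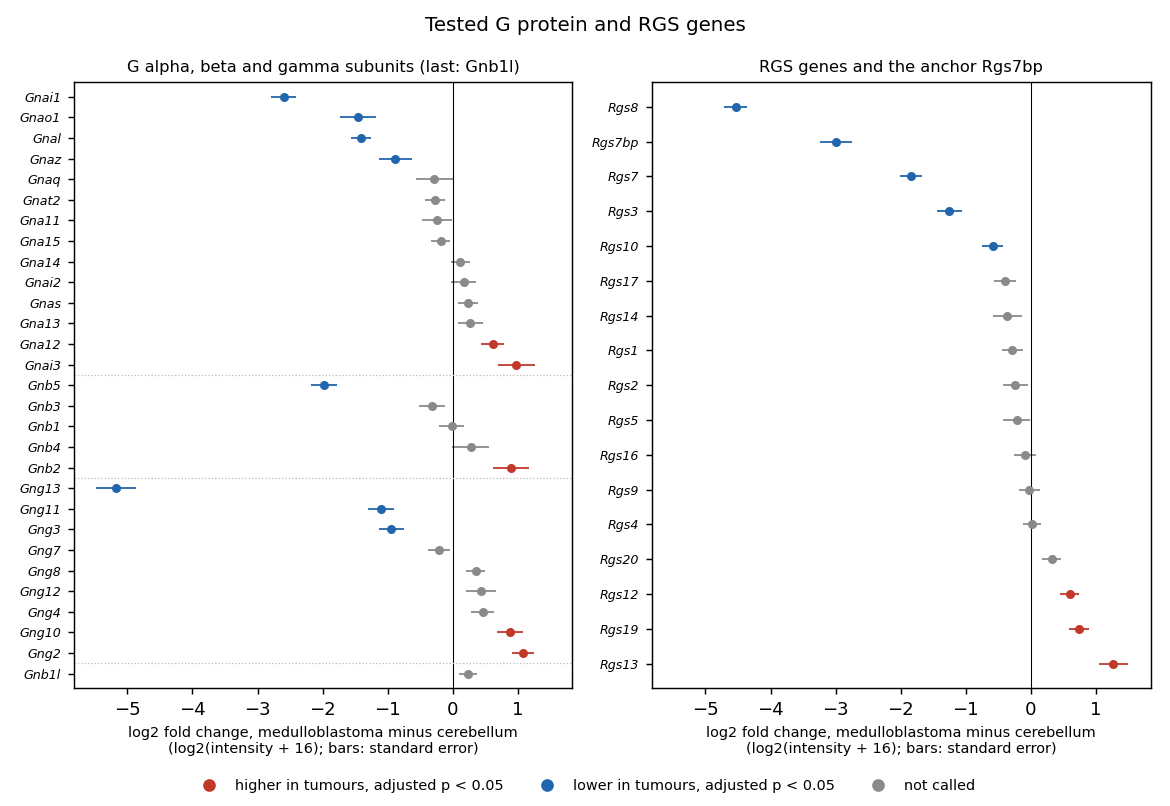
Log2 fold change of tumour over cerebellum for each of the 46 tested genes on the log2(intensity + 16) scale, with the standard error as a bar, for the subunits on the left and the RGS genes on the right. The falls reach -5.17 in Gng13 and -4.54 in Rgs8, and the highest rise is 1.27 in Rgs13.

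The tissues were checked by marker genes. All 6 tested markers of mature granule neurons and all 5 of Purkinje cells fell, and all 8 of granule precursors and all 5 of cell division rose. The granule neuron markers on 430A summed to an intensity of 276 to 349 in the tumours, against 6140.4 to 6785 in the cerebellum. The cell division markers summed to 2291 to 2583 in the tumours, against 44.9 to 197 in the cerebellum. All 5 of them were higher in cerebellum 1 than in cerebellum 2, such as Top2a with 65.4 and 4.65. The cerebellum samples were thus not alike in these markers. Of Bergmann glia and astrocyte markers 6 of 7 fell, of oligodendrocyte markers 4 of 4 and of GABAergic interneuron markers 4 of 5. Of oligodendrocyte precursor markers 2 of 3 rose. Of microglia and macrophage markers 6 of 8 rose, with a summed intensity of 965 to 1202 in the tumours, against 340.1 to 409 in the cerebellum. Of 5 endothelial markers 1 fell, and of 2 choroid plexus markers 1. None of 4 pericyte, 3 lymphocyte, 3 fibroblast and 2 blood markers was called. RNA came from pieces of tissue, so fewer cells of a type and less RNA per cell cannot be told apart. The median intensity was 33.3 to 35.9 on the 430A arrays and 22.5 to 24.0 on the 430B arrays. Both chips hold 100 probe sets in common, and there the deviations of the 430B tumour arrays numbered 1, 2 and 3 correlated best with those of the 430A tumours numbered 3, 1 and 2 (r = 0.729, 0.830 and 0.862). The numbers may therefore not mark the same tumour on both chips, and every test below stays within a chip.

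Among the members are the parts of a complex that turns off Gi and Go signals in neurons. Rgs7 is a regulator of the R7 subfamily, Gnb5 is the beta subunit that R7 regulators bind in place of a gamma subunit, and Rgs7bp is the protein that anchors the pair at the membrane. Rgs9, the other tested R7 regulator, was not called, while all of these parts fell. The promoters of these genes, given by RefSeq on GRCm38.p6 as 300 bases that run from upstream of the start site to just past it, are shown 5′ to 3′ on the gene's strand because the genes fell together. Next to them stand Gng13 and Rgs8, the members with the largest falls, and Gng2, a gamma subunit gene that rose in every fit with a replicate left out. Capitals mark any match to the motifs named after the sequences, on either strand.
Rgs7 (chr1:175492496-175492795, minus strand): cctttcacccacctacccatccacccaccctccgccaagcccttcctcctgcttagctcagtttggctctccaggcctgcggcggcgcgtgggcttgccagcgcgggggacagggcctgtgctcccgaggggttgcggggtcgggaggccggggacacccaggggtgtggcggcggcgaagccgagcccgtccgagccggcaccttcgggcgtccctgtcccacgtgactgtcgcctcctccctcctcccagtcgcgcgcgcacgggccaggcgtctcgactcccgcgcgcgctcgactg
Gnb5 (chr9:75306038-75306337, plus strand): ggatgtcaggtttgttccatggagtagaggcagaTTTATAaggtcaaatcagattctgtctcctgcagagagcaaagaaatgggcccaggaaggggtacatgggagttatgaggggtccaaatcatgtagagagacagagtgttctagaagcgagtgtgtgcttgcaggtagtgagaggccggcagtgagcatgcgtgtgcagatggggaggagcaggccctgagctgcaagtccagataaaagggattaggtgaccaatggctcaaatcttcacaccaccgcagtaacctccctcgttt
Rgs7bp (chr13:105054881-105055180, minus strand): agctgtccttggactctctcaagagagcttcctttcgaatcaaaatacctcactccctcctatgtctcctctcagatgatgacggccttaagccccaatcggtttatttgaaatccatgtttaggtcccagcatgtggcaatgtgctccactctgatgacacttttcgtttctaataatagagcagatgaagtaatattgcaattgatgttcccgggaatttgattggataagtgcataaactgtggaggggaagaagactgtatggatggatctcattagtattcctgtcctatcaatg
Gng13 (chr17:25716922-25717221, plus strand): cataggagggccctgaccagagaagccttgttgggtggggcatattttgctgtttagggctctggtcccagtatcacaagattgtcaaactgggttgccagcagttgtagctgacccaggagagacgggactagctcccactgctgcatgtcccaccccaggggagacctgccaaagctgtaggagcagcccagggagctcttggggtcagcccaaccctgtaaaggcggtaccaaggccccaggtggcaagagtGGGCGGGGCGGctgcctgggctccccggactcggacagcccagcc
Rgs8 (chr1:153652787-153653086, plus strand): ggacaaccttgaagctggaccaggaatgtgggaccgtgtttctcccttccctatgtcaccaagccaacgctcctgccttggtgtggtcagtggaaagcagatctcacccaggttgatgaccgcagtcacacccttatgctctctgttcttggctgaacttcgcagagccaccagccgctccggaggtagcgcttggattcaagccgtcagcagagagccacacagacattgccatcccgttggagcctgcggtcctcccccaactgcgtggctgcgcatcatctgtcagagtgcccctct
Gng2 (chr14:19976644-19976943, minus strand): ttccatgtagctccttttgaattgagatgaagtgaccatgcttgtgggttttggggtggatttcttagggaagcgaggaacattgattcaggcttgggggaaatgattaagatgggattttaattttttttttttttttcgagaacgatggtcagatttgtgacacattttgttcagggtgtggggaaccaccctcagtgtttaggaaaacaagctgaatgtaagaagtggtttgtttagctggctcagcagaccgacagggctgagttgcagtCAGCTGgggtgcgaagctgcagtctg

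The motifs were the cyclic AMP response element TGACGTCA, the GLI site GACCACCCA, the E-box CAGCTG, the TATA box TATAAA and the GC box GGGCGG. No match shown overlaps a match to another motif, and the window of Gng13 holds 2 GC boxes that run together. Gnb5 holds a TATA box read on the opposite strand and Gng2 an E-box, while none of these letters occurs in the windows shown for Rgs7, Rgs7bp and Rgs8. Another start site of Rgs8 holds an E-box. Over all 32851 promoters of the table, 1.79% hold the cyclic AMP response element, 0.253% the GLI site, 16.3% the E-box, 13.6% the TATA box and 35.7% the GC box. A promoter was found for 38 of the 52 genes, with 51 start sites in all. No start site of these genes held the cyclic AMP response element, and 1, in Gnb1l, held the GLI site. Of the promoters of members that fell, 4 of 10 genes held a GC box, against 5 of 8 genes that rose and 14 of 19 that were not called. A gene was counted here if any of its start sites held the motif, while the shares over the table are per promoter. Per start site, 27 of the 51 held a GC box. Rgs8 has 3 and Gng13 has 2 listed start sites, of which the first is shown.

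Of the 15 alpha subunit genes 14 were tested, and 2 rose and 4 fell (14.3% and 28.6%, against 10.7% and 16% of all genes). The count that rose was 1 without cerebellum 1 or tumour 1 and 0 without cerebellum 2 or tumour 3. Here and for the genes that follow, values in each array are intensities, while values with a standard error or an adjusted p, and those of genes that were not called, are log2 fold changes of tumour over cerebellum. Gnai1, which inhibits adenylyl cyclase, had an intensity of 22.9, 37.7 and 33.1 in the tumours, against 259.7 and 277 in the cerebellum. Every tumour lay near the median of its array and far below both cerebellum samples, and the log2 fold change was -2.60 ± 0.19, adjusted p = 3.09e-06. Its other probe sets gave -3.42 and -1.83, both called. Gnao1, the most widely used alpha subunit of neurons, had 56.1, 103 and 54.1 in the tumours, against 165 and 280.3 in the cerebellum (-1.46 ± 0.28, adjusted p = 0.0021). Tumour 2 and cerebellum 2 were the high samples of their groups, which did not overlap. A second probe set of Gnao1 had a log2 fold change of 0.26 and was not called. Gnal, a close relative of Gnas that stimulates adenylyl cyclase in olfactory and striatal neurons, had 18.7, 20.9 and 19.8 in the tumours, against 67.8 and 92.3 in the cerebellum on 430B (-1.41 ± 0.15, adjusted p = 1.50e-04). Here the tumours were close to each other and all lay below the array medians. Its other probe sets gave -2.38, which was called, and -0.26, which was not.

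Gnaz, an inhibitory alpha subunit that hydrolyses GTP slowly, had 65.8, 137 and 109.6 in the tumours, against 203 and 193 in the cerebellum (-0.88 ± 0.26, adjusted p = 0.0218). Its tumours lay below the cerebellum samples but spread over a factor of 2, and the call was lost without tumour 1 (log2 fold change -0.63, adjusted p = 0.0723), without cerebellum 1 (-0.85, adjusted p = 0.119) and without cerebellum 2 (-0.92, adjusted p = 0.103). It was also lost after quantile normalization (-0.73, adjusted p = 0.0598). A probe set of Gnaz on 430B gave 0.10 and was not called.

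Gnai3, the ubiquitous inhibitory alpha subunit, stood opposite to Gnai1. It had 363, 219 and 408 in the tumours, against 191 and 124 in the cerebellum (0.98 ± 0.28, adjusted p = 0.0204), with tumour 2 just above the higher cerebellum sample. The call was lost without cerebellum 2 (0.70, adjusted p = 0.224), tumour 1 (0.89, adjusted p = 0.0766) or tumour 3 (0.81, adjusted p = 0.078), its other probe set stood at 0.51, and the mean over both gave 0.74 (adjusted p = 0.0567). Gna12, an alpha subunit of a class of its own with Gna13, had 45.4, 56.4 and 68.0 in the tumours, against 26.8 and 35.6 in the cerebellum (0.62 ± 0.18, adjusted p = 0.0218). Tumour 3 was the highest and all tumours lay above the cerebellum samples. Without cerebellum 1, without cerebellum 2 and without tumour 3 the Gna12 call was lost, at 0.48 (adjusted p = 0.219), 0.75 (adjusted p = 0.0555) and 0.50 (adjusted p = 0.0673). A second of its 4 tested probe sets was called too, at 0.87.

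Gnas, the stimulatory alpha subunit, gave values that depended on the probe set. Its locus is imprinted and has several promoters with different first exons. The bright 430A probe set had 685, 1077 and 624 in the tumours, against 1382 and 2011 in the cerebellum, and fell (-1.09 ± 0.25, adjusted p = 0.00525). A 430B probe set had 35.3, 29.8 and 36.7 in the tumours, against 18.3 and 14.2 in the cerebellum, and rose (0.63 ± 0.14, adjusted p = 0.0112). The probe set that stands for the gene, a dim one of 430A, had 42.6, 51.2 and 41.4 in the tumours, against 35.8 and 35.7 in the cerebellum, and was not called (0.24 ± 0.15, adjusted p = 0.284). The bright one has the suffix that Affymetrix gives to probe sets shared between transcripts, and the files do not say which Gnas transcripts each one reads. No other member had probe sets called in opposite directions.

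None of the 4 alpha subunits of the Gq class, which activate phospholipase C, was called by limma, and none had an unadjusted p below 0.05. Gnaq had 5 tested probe sets on 430B, from -0.37 to -0.20, and its representative had 323, 223 and 170.0 in the tumours, against 305 and 264 in the cerebellum. The groups overlapped, with tumour 1 the highest sample of all. With 430B rescaled by its shared probe sets, which moved the median of all probe sets of that chip by -0.22 on the log2 scale, Gnaq stood at -0.65 (adjusted p = 0.0419). Gna11 had a log2 fold change of -0.24, Gna14 0.12 and Gna15 -0.18. Gnai2, another inhibitory subunit, stood at 0.17 and Gnat2, the transducin of cones, at -0.27. Gna13, the other member of the Gna12 class, had 0.27 in its representative and -0.18 to 0.38 in its other probe sets, none of them called. Gnat1, the transducin of rods, was too dim to test, at 1 to 8.70 in the tumours, against 2.40 and 3.76 in the cerebellum.

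Among the 5 beta subunits 1 rose and 1 fell (20% each, against 10.7% and 16% of all genes). The count that rose was 0 without cerebellum 1 or tumour 1, and the count that fell was 2 without tumour 2. Gnb5, the partner of R7 regulators, had 70.1, 81.5 and 57.4 in the tumours, against 299.8 and 337 in the cerebellum (-1.97 ± 0.20, adjusted p = 2.45e-05), and the groups stood clearly apart. Gnb2, a general beta subunit, had 193, 278 and 145 in the tumours, against 78.1 and 126 in the cerebellum (0.89 ± 0.28, adjusted p = 0.0291). Its tumour 3 was close to cerebellum 2, and the call was lost without cerebellum 1 (0.60, adjusted p = 0.287) and without tumour 1 (0.91, adjusted p = 0.0717). Gnb1, the most common beta subunit of the brain, had 338, 295 and 345 in the tumours, against 346 and 313 in the cerebellum in its representative, with overlapping groups (-0.02 ± 0.19, adjusted p = 0.962). Another probe set of Gnb1 had 186, 141 and 203 in the tumours, against 63.3 and 89.9 in the cerebellum, and rose (1.06 ± 0.22, adjusted p = 0.00347), and the third of its probe sets stood at -0.25. Gnb4 had a log2 fold change of 0.28 and Gnb3, the beta subunit of cones, -0.31. Without tumour 2 Gnb3 was called lower, at -0.53 (adjusted p = 0.0138).

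Of 9 gamma subunits 2 rose and 3 fell (22.2% and 33.3%, against 10.7% and 16% of all genes). This class held the largest fall of the family. Without cerebellum 2 the count that rose was 1. Gng13, a gamma subunit known from taste cells, retina and cerebellum, had 33.6, 31.7 and 8.65 in the tumours, against 1174 and 1629 in the cerebellum. No tumour lay far above the median of its array, and tumour 3 was the lowest by a wide margin. The log2 fold change was -5.17 ± 0.30, adjusted p = 8.96e-07, or 36.1-fold lower on the scale used. The same tumour was the lowest of the group in the Purkinje cell markers Calb1, with 76.1, 55.5 and 19.9 in the tumours, against 2807 and 3387 in the cerebellum, and Pvalb, with 111, 125 and 46.9 in the tumours, against 3597 and 4109 in the cerebellum. Tumour 3 was also the lowest tumour in Gabra6 of granule neurons, Gad1 of interneurons and Mobp of oligodendrocytes. In Cbln1, Kit and Mbp of the same lists it was not. The part of any of these cell types in the Gng13 values was not tested. A dim 430B probe set of Gng13 had 15.5, 15.2 and 10.7 in the tumours, against 25.8 and 17.7 in the cerebellum, and was not called (-0.34 ± 0.16, adjusted p = 0.191).

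Gng11, a farnesylated gamma subunit that is also found in blood vessels, had 68.5, 46.6 and 71.0 in the tumours, against 149 and 149.7 in the cerebellum (-1.10 ± 0.20, adjusted p = 0.00141). The cerebellum samples were nearly equal and more than double the tumours. The endothelial markers summed to 161 to 208 in the tumours, against 174 to 179.5 in the cerebellum, and their part in the Gng11 values was not tested. Gng3, the gamma subunit of mature neurons, had 298, 283 and 326 in the tumours, against 559 and 634 in the cerebellum (-0.94 ± 0.19, adjusted p = 0.00269). Its tumours were close to each other and well over the array medians, and the groups did not overlap.

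Gng2, a gamma subunit widely used in the brain, had 69.9, 53.2 and 69.3 in the tumours, against 26.4 and 17.5 in the cerebellum on 430A (1.08 ± 0.17, adjusted p = 6.26e-04). A second 430A probe set had 0.65 ± 0.19, adjusted p = 0.024. On 430B its probe sets had 495, 438 and 231 in the tumours, against 138 and 115 in the cerebellum (1.44 ± 0.32, adjusted p = 0.012) and 343, 286 and 103 in the tumours, against 86.6 and 79.8 in the cerebellum (1.24 ± 0.40, adjusted p = 0.0623). All 4 probe sets held the tumours above the cerebellum samples, with the tumour array numbered 3 on 430B well below the other tumours. Gng10, another widely expressed gamma subunit, had 310.5, 258 and 307 in the tumours, against 168 and 136 in the cerebellum (0.88 ± 0.20, adjusted p = 0.00635), and stood at 0.74 (adjusted p = 0.102) without cerebellum 2. Gng12, found in many dividing cells, had 0.44 ± 0.22, adjusted p = 0.173 in its representative and 0.78 ± 0.18, adjusted p = 0.00537 in its other probe set. It stood at 0.62 (adjusted p = 0.0175) without tumour 2 and at 0.61 (adjusted p = 0.0277) with the mean over its probe sets. Gng4 had 0.46, and 0.56 (adjusted p = 0.0209) without the 430B tumour 3. Gng8 had 0.35 and Gng7, the partner of Gnal in the striatum, -0.22, neither of them called.

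**Figure D2:**
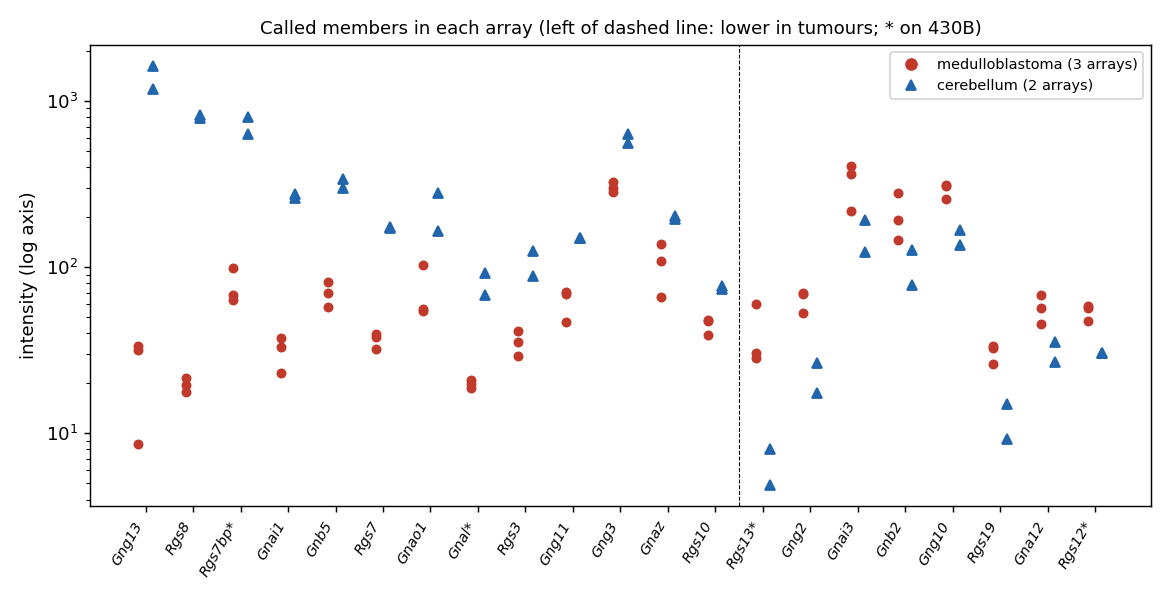
Intensity on a log axis in every array for the 21 members that passed the test, with the 3 tumours as circles and the 2 cerebellum samples as triangles, genes that fell at the left and genes that rose at the right of the dashed line, and a star on genes of 430B. The tumours of Gng13, Rgs8 and Rgs7bp sit far below their cerebellum samples, while those of Gnai3 and Gnb2 come close to them.

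Among RGS genes and their anchors 21 were on the arrays and 17 were tested. Of the tested ones 3 rose and 5 fell (17.6% and 29.4%, against 10.7% and 16% of all genes). With the dimmest 50% of probe sets left out, the count that rose was 1. Without cerebellum 2 the count that rose was 1. Rgs8, a small regulator of the R4 subfamily that is known from Purkinje cells, had 19.4, 21.4 and 17.8 in the tumours, against 792 and 823 in the cerebellum. The tumours were close to each other and below the median of their array, and the log2 fold change of -4.54 ± 0.18, adjusted p = 3.02e-07 was the second largest fall of the family. The Purkinje cell markers on 430A summed to 166 to 348 in the tumours, against 10839.5 to 13559 in the cerebellum, and their part in the Rgs8 values was not tested. Rgs3, another R4 member, had 35.6, 41.2 and 29.1 in the tumours, against 88.3 and 126 in the cerebellum (-1.25 ± 0.19, adjusted p = 4.00e-04), and its other tested probe sets had -0.66, which was called, and 0.03, which was not. The gene makes long and short proteins, and the files do not say which of them each probe set reads.

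The Rgs7 complex fell in each part, while 16% of all genes were called lower. Its parts were drawn together with the values of the members known, so their shared direction only describes them. Of the 2 tested R7 regulators only Rgs7 was called. Rgs7 had 32.1, 39.5 and 38.1 in the tumours, against 171 and 174 in the cerebellum (-1.85 ± 0.17, adjusted p = 1.20e-05). Rgs7bp had 68.2, 63.4 and 98.2 in the tumours, against 636 and 798 in the cerebellum on 430B (-2.99 ± 0.25, adjusted p = 2.53e-05), and its other 2 probe sets gave -2.77 and -3.43, both called. Together with Gnb5 these genes stood clearly apart between tumour and cerebellum in every array. Rgs9, the R7 regulator of photoreceptors and striatum, had 58.1, 54.3 and 56.7 in the tumours, against 61.5 and 53.6 in the cerebellum, and its log2 fold change of -0.02 was not called. Rgs6 and Rgs11, the remaining R7 regulators, and the Rgs9 anchor Rgs9bp were too dim to test, with no intensity above 14.2 in any sample of their probe sets.

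Rgs10, a short regulator abundant in microglia and neurons, had 47.2, 39.1 and 48.3 in the tumours, against 73.4 and 77.2 in the cerebellum (-0.59 ± 0.16, adjusted p = 0.0164). Microglia and macrophage markers were mostly higher in the tumours and those of mature granule neurons lower, and the part of these cells in the Rgs10 values was not tested. Rgs10 was called lower with all arrays. Without cerebellum 1 it stood at -0.62 (adjusted p = 0.0832) and without cerebellum 2 at -0.56 (adjusted p = 0.129). Rgs12, a large scaffold with further domains, had 57.1, 58.5 and 47.6 in the tumours, against 30.6 and 30.4 in the cerebellum on 430B (0.60 ± 0.15, adjusted p = 0.0198), and a second probe set, at 0.80, was called too, while the third stood at 0.06. The Rgs12 call was lost without cerebellum 1 (0.60, adjusted p = 0.139), cerebellum 2 (0.59, adjusted p = 0.155), tumour 1 (0.57, adjusted p = 0.0531) or tumour 2 (0.55, adjusted p = 0.0825), and with 430B rescaled by its shared probe sets (0.28, adjusted p = 0.399). Rgs14, a regulator with a domain that binds inactive Gi, had -0.36, and -0.58 (adjusted p = 0.0181) without tumour 2.

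Rgs13, an R4 regulator known from germinal centre B cells and mast cells, had 60.4, 30.3 and 28.4 in the tumours, against 8.08 and 4.87 in the cerebellum on 430B (1.27 ± 0.22, adjusted p = 0.00312). Tumour 1 was about double the other tumours, and all lay above the cerebellum samples. The cerebellum values were far below the array medians. With the dimmest 50% of probe sets left out, Rgs13 was not tested. Its change was larger than that of any other representative that rose, but not in every setting. With 430B rescaled by its shared probe sets it stood at 0.94 (adjusted p = 3.99e-04), below Gng2, and with a pseudocount of 64 at 0.54 (adjusted p = 0.00855), below Gnai3 at 0.81 (adjusted p = 0.0212). The lymphocyte markers Cd3e, Cd3d and Cd79b summed to 68.5 to 81.3 in the tumours, against 70.6 to 77.2 in the cerebellum. Of these, Cd3d and Cd79b lay below the array medians in every sample, so their values may be background. No markers of mast cells were listed, and the part of any of these cells in the Rgs13 values was not tested. Rgs19, a regulator of the RZ subfamily that prefers Gi and Gz, had 26.3, 32.6 and 33.5 in the tumours, against 15.1 and 9.19 in the cerebellum (0.74 ± 0.15, adjusted p = 0.00351), and its second probe set had 1.02 ± 0.22, adjusted p = 0.00473. Without cerebellum 2 the first stood at 0.59 (adjusted p = 0.0703). Of the other RZ genes Rgs20 had 0.32, and 0.42 (adjusted p = 0.0451) without tumour 2, and Rgs17 had -0.40, and -0.50 (adjusted p = 0.0209) without tumour 2.

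The other R4 regulators were not called in their representatives. Rgs5, a marker of pericytes, had 181, 195 and 196 in the tumours, against 260.2 and 192 in the cerebellum (-0.22), and 3 more probe sets lay from -0.50 to -0.29. Pericyte and smooth muscle markers summed to 68.1 to 117 in the tumours, against 80.0 to 105 in the cerebellum, and their part in the Rgs5 values was not tested. Rgs4, a regulator of Gi and Gq signals in neurons, had 0.01, while another probe set had 18.5, 13.7 and 18.0 in the tumours, against 36.0 and 38.3 in the cerebellum, and fell (-0.70 ± 0.14, adjusted p = 0.00301). Rgs2, which acts mainly on Gq, had -0.24, with 3 other probe sets at -0.41, -0.03 and -0.45. Rgs1, a regulator of leukocytes, had a log2 fold change of -0.28 and Rgs16 of -0.09. Rgs18, known from platelets and leukocytes, was too dim to test, with no value above 17.0. Gnasas1 was also not tested, and Gnb1l had 0.23 and was not called.

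**Figure D3:**
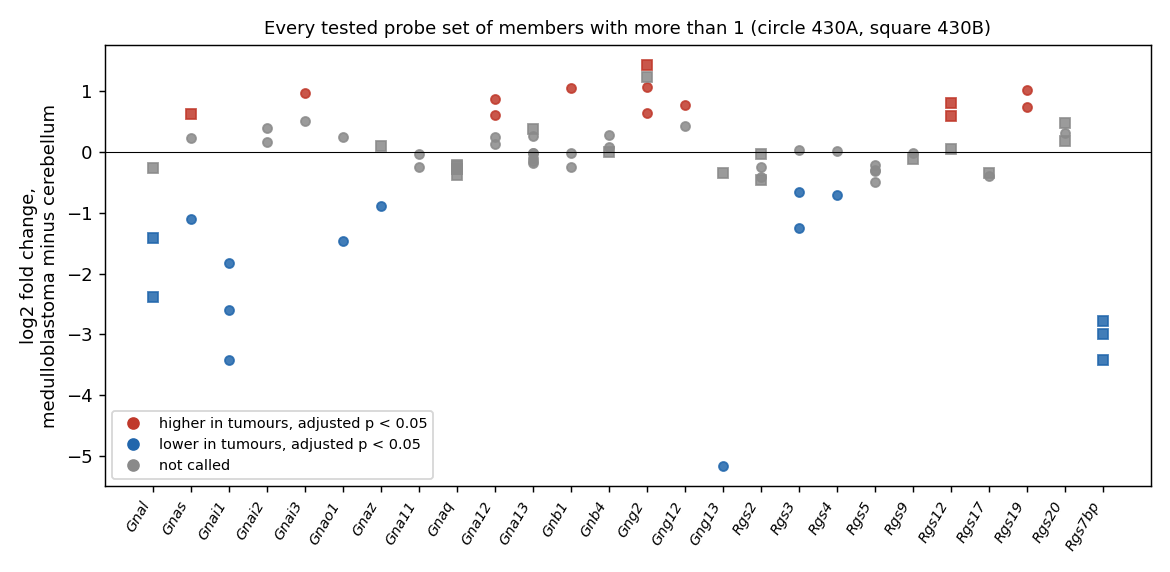
Log2 fold change of tumour over cerebellum for every tested probe set of the 26 members that have more than 1, with circles for 430A, squares for 430B and colours for the call. All probe sets fell in Gnai1 and Rgs7bp and all rose in Rgs19, and in Gnas 1 fell and 1 rose.

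Probe sets of 1 gene can read different transcripts, so their agreement was counted. Of the 26 members with more than 1 tested probe set, 1 had all of them called higher, 2 had all called lower and 10 had none called. In 12 members some were called, all in 1 direction, and Gnas alone had calls in both. Over both chips 97 probe sets of members were tested, of which 16 were higher and 21 lower, against 10.5% and 14.4% of all probe sets. On 430A 11 of 66 were higher and 16 lower, against 13.1% and 19% of that chip. On 430B 5 of 31 were higher and 5 lower, against 7.85% and 9.77%.

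Many of these genes lie beside each other in the genome, which the naming rule did not use. Of the 21 RGS and anchor genes 10 are on chromosome 1. Rgs8 and Rgs16 are neighbours there with no protein-coding gene between them in the RefSeq annotation, and they had log2 fold changes of -4.54, called, and -0.09, not called. Rgs13 lies between Rgs2 and Rgs1, with a log2 fold change of 1.27 against -0.24 and -0.28. Gnai3 and its neighbour Gnat2 on chromosome 3 had 0.98 and -0.27. The pairs Gna11 with Gna15, Gnaq with Gna14 and Rgs5 with Rgs4 had no representative called.

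The genes around the G proteins were described by a list of receptors, kinases, arrestins, exchange factors and effectors. The list was chosen with earlier results of these data known and shares Pcp2 with the Purkinje cell markers. Its shares of called genes therefore describe the list only. Of 40 such genes on the arrays 35 were tested, and 5 rose and 14 fell, or 14.3% and 40% against 10.7% and 16% of all genes. Without cerebellum 1 the count that rose was 3. Their median log2 fold change was -0.04. Pcp2, a Purkinje cell protein that binds inactive Gi and Go, had 75.8, 91.8 and 46.8 in the tumours, against 2007 and 2799 in the cerebellum (-4.81 ± 0.26, adjusted p = 5.73e-07). Grm4, the glutamate receptor at the parallel fibre synapse, had 17.7, 16.2 and 44.1 in the tumours, against 202 and 276 in the cerebellum on 430B (-2.65 ± 0.27, adjusted p = 1.04e-04), with tumour 3 above the other tumours. Plcb4, the phospholipase that Gq activates in Purkinje cells, had 40.1, 45.8 and 44.2 in the tumours, against 334 and 329 in the cerebellum (-2.55 ± 0.18, adjusted p = 2.31e-06), although Gnaq itself was not called. Kcnj9, a potassium channel subunit opened by beta-gamma, had -2.36, Gpr37l1, a receptor of astrocytes and Bergmann glia, -2.25 and Gabbr1, a GABA-B receptor subunit, -2.16, all called. Gpr158, a receptor that binds R7 complexes, is named after its values were seen and had 26.8, 23.8 and 28.0 in the tumours, against 112 and 90.4 in the cerebellum (-1.47 ± 0.16, adjusted p = 1.21e-04).

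The rises in the list were led by Sstr2, a somatostatin receptor that couples to Gi, with 750.4, 408 and 522 in the tumours, against 31.0 and 14.9 in the cerebellum (3.87 ± 0.28, adjusted p = 2.61e-06). Gpsm2, a protein that binds inactive Gi and orients the mitotic spindle, had 95.5, 97.9 and 94.6 in the tumours, against 11.4 and 10.7 in the cerebellum (2.05 ± 0.15, adjusted p = 2.74e-06). Its tumours were nearly equal and far above both cerebellum samples. Gpr161, a ciliary receptor that acts through Gs against Hedgehog signalling, had 43.1, 38.9 and 42.2 in the tumours, against 9.81 and 13.2 in the cerebellum on 430B (1.06 ± 0.13, adjusted p = 3.86e-04). Smo, which encodes the Hedgehog transducer that SmoM2 is a form of, had 0.60 ± 0.17, adjusted p = 0.0198, and Grk6, a receptor kinase, 0.57 ± 0.15, adjusted p = 0.0127. Smo was not called without cerebellum 1, at 0.63 (adjusted p = 0.103), or without cerebellum 2, at 0.58 (adjusted p = 0.15). Grk6 was likewise not called without cerebellum 1 or without cerebellum 2, at 0.58 (adjusted p = 0.0798) and 0.56 (adjusted p = 0.102), nor with the mean over its probe sets, at 0.24 (adjusted p = 0.209). Nothing in the files tells if the Smo probe set reads SmoM2 as well. Ric8a and Ric8b, which assist the folding of alpha subunits and were picked after their values were seen, had -0.05 and 0.05 and were not called.

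**Figure D4:**
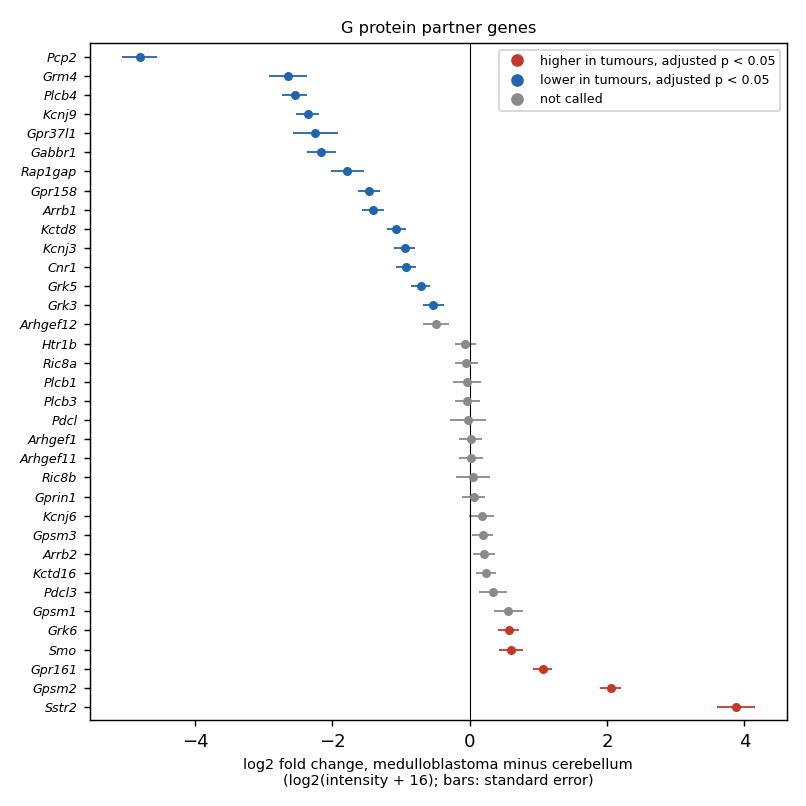
Log2 fold change of tumour over cerebellum for the 35 tested partner genes on the log2(intensity + 16) scale, with the standard error as a bar. The values run from -4.81 in Pcp2 to 3.87 in Sstr2, with 14 genes called lower and 5 called higher.

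Of the 21 members called with all arrays, 13 were called in each of the 5 fits that left out 1 replicate number. Of these 11 were lower, and Gng2 and Rgs13 were the higher ones. The other 8, of which 6 were higher, lost the call in at least 1 such fit, as given above for each.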

How the data were processed

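The files hold a linear intensity that the authors deposited for each probe set on each array. Total RNA was extracted with Trizol and labelled with biotin by the Affymetrix procedure, per the labels' protocols. Software, scaling and background treatment: not given in the sources used here. No detection calls were used. Precision is limited by the number of arrays. The labels call the replicates biological and do not tie them to mice. A p-value sets a difference against the variation between these samples, which limma moderates over the probe sets of a chip. It need not cover the variation between mice. All columns were mapped through the sample titles.

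Values were taken as log2(intensity + 16) with no further normalization, and the dimmest 25% of probe sets on each chip, by mean, were left out. Each chip was fitted on its whole table with limma 3.58.1 in R 4.3.3 (lmFit, eBayes with an intensity trend, two-sided), with Benjamini-Hochberg adjustment over its 16969 or 16883 tested probe sets. Genes came from the platform annotation, checked by Entrez identifier against the GRCm38.p6 gene table. A gene was represented by 1 tested probe set, taken from 430A where possible, in preference without the suffixes _s_at or _x_at, and then the brightest. Gene names are those of the platform annotation, and the arrays name no genome build, so the coordinates of promoters are those of RefSeq only. On arrays simulated with independent noise from its own variances, the mean estimate of the fit lay near the planted changes. The share of planted changes that was called was checked only for those larger than 1. Far fewer probe sets held a planted change than were called in the real arrays. No planted change was smaller than 1 on the log2 scale, so the check does not cover smaller ones. Values in every array are given for up to 4 called members of a role and direction, by size of the change. For partners the limit was 6, and Rgs10, Gpr158, Ric8a and Ric8b were added to these after their values were seen. The members, lists and alternatives were chosen with earlier results of these data known. Promoters, motifs and neighbours were chosen after the values of the members were seen. Figures were drawn with matplotlib 3.10.9.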

Additional observations from a re-analysis of the deposited data

How the results depend on the processing

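Tried instead were a pseudocount of 1 or 64, quantile or median normalization, 430B rescaled by its shared probe sets, a filter of 50% or none, eBayes without trend, the replicate block, 1 replicate number left out, stricter limits and other choices of probe set, with 430A alone added after the data were seen. With 1 replicate left out, the count of members that rose ranged from 3 to 9 (8 with all arrays) and that of partners that rose from 3 to 6 (5 with all arrays). A lone cerebellum array is then assumed to vary like the tumours, and fewer arrays cost power. At an adjusted p below 0.01, 4 members (8.7%, against 6.71% of all genes) and 3 partners rose. With a log2 limit of 1, 2 members (4.35%, against 5.11% of all genes) and 3 partners rose. Among members that fell and partners that fell, every count stayed within 1.5 times, from 10 to 16 of 13 and from 10 to 17 of 14. Gnas stood at -1.09 (adjusted p = 0.00525) with its brightest probe set, the only call of a member opposite in sign to its reported value. That alternative reads another probe set by construction. The labels do not say that a replicate number is shared between tissues, and same-numbered deviations correlated at -0.03 and 0.17 on 430A and 0.11 and 0.02 on 430B. With the replicate number as a replicate block, which leaves tumour 3 without a partner, 9 members rose and 13 fell (19.6% and 28.3%, against 14.5% and 18.4% of all genes), and 6 partners rose and 14 fell. Over single members and alternatives other than a left-out replicate, 9 values lost a call and 3 gained one. Another 10 values changed sign without a call before or after, in Gna13, Gnas, Gnb1, Rgs4 and Rgs9, and lay between -0.43 and 0.26. With a replicate left out, 9 such values lay between -0.04 and 0.06, in Gnb1, Gnb4, Rgs4, Rgs9 and Rgs16. With no detection calls, dim values near or below the array medians may be background, which limits every member with such values, among them the cerebellum values of Rgs13, Rgs19, Gng2 and Gna12 and the tumour values of Gng13, Rgs8, Gnal, Gnai1 and Rgs7.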
